A study of Mus musculus with 24 samples.

Results

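The genes described are Gria2, Gabrb2, Gad1, Cbln2, Cacna2d3 and Adcyap1r1, a set of 6 genes of synaptic transmission. They were taken by exact symbol from 23 deposited tables of P19 cells, which list 1753 genes between them, and all 6 are in at least 1 table. The genes were chosen by their measured log2 fold changes in these same tables, so what follows is a description of those values with no test of the choice. P19 is a mouse embryonal carcinoma line that forms neurons when exposed to retinoids. Poly-A RNA was sequenced from 24 samples, with 1 library per condition and no replicate. WT cells were sampled after 2 and 4 d of ligand, and at day 10, which is 4 d of ligand followed by 6 d in Neurobasal medium with N2 and B27 without vitamin A. The ligands were all-trans retinoic acid (ATRA), a pan-RAR agonist, at 1 μM, the RARα agonist BMS753 at 1 μM, the combination of the RARβ agonist BMS641 and the RARγ agonist BMS961 at 0.1 μM each, and ethanol (EtOH) as the vehicle. For BMS961 alone at 0.1 μM, WT cells were sampled at day 10 only.

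The raraKO, rarbKO and rargKO lines lack 1 retinoic acid receptor each, through CRISPR/Cas9 cutting and insertion of a puromycin resistance cassette, and were sampled at day 10 in 11 conditions. raraKO cells received ATRA, BMS961 or the combination. rarbKO cells received ATRA, BMS753, BMS961 or the combination, and rargKO cells ATRA, BMS753, BMS641 at 0.1 μM or the combination. Every table compares 1 library with the same library, WT cells after 2 d of EtOH, and vehicle-treated mutant cells were not analysed here. A value of a mutant line therefore joins the effects of line, ligand, time and medium, which cannot be told apart. Rara, Rarb and Rarg are in 0 of the 23 tables, so the targeted gene could not be checked against the label of any mutant library.

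Each table holds genes whose unadjusted p-value from the authors' DESeq2 comparison was under 0.01. A gene absent from a table is called not listed, which is not evidence that it did not respond. A gene is called up when its log2 fold change is over 2, a 4-fold rise. The standard error (SE) of each value was taken from its p-value, as the log2 fold change divided by the normal deviate of that p. It covers the authors' model only and no spread between cultures. The median SE of the genes up ran from 1.17 to 2.30 between tables. A value needed for listing, worked out from the SE of other tables, may therefore not hold. The tables list between 57 and 546 genes each. The files give no counts, so the depth behind a value is unknown.

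At an excitatory synapse, glutamate released from vesicles opens AMPA and NMDA receptors on the receiving cell, and at an inhibitory synapse GABA opens chloride channels formed by GABA-A receptor subunits. Gria2 encodes the AMPA receptor subunit GluA2, which limits calcium entry through the channel. Gabrb2 encodes a β subunit of the GABA-A receptor, and Gad1 encodes GAD67, the enzyme that makes most GABA from glutamate. Cbln2 encodes a secreted cerebellin that links presynaptic neurexins to postsynaptic partners. Cacna2d3 encodes an auxiliary α2δ subunit of voltage-gated calcium channels, the channels that trigger vesicle release. Adcyap1r1 encodes PAC1, the receptor of the neuropeptide PACAP, which raises cyclic AMP through adenylyl cyclase and is also found on glial cells.

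Gria2, Gad1, Cbln2 and Adcyap1r1 were up together in 6 day 10 tables, and the sequence directly upstream is shown for 3 of them. Sequences are from RefSeq (GRCm38.p6). Entries of 5 of the 6 genes were used, and Cbln2 was left out of this part. Each sequence shown was placed in mm9, the build of the authors' mapping, by its only exact match. The Gria2 sequence covers chr3:80606758-80607007 on the minus strand. It ends 45 bases before the annotated gene, which spans chr3:80488858-80606713 and has up to 17 exons. The Gad1 sequence, chr2:70399936-70400098 on the plus strand, stops at the first base of an annotated Gad1 exon and holds 163 bases. A longer annotated transcript starts further upstream, so this stretch is intronic to the gene model chr2:70391129-70440071. The Adcyap1r1 sequence, chr6:55401722-55401971 on the plus strand, ends 1 base before the annotated gene, chr6:55401972-55451445. Capitals mark the motif matches described next, and the sequence of Adcyap1r1 has none.
Gria2: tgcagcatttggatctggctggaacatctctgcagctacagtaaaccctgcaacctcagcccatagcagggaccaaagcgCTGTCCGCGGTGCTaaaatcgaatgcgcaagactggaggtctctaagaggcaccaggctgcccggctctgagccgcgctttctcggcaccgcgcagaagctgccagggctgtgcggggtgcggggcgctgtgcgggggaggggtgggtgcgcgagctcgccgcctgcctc
Gad1: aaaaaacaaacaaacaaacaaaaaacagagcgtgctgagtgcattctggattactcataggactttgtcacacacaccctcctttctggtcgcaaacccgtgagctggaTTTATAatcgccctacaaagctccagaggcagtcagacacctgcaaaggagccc
Adcyap1r1: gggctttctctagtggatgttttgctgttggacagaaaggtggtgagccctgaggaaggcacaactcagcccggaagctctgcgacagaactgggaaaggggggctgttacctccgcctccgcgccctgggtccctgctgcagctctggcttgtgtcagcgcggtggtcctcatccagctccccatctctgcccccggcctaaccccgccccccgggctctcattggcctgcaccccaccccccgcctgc

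Searched on both strands of the 250 bases upstream of the RefSeq start were 4 retinoic acid receptor half-sites, AGGTCA as the first, AGTTCA as another, with GGGTCA as well as GGTTCA, the E-boxes written CAGCTG or else CAGATG, the TATA box TATAAA, and also RE1, the element bound by the neuronal gene repressor REST. RE1 was written as AGCACC and GGACAG with 2 bases of any kind between them, and was added after the Gria2 sequence had been seen. The Gria2 window holds RE1 on its reverse strand, 170 to 157 bases upstream of the start. This letter pattern occurs in 15 of the 32851 windows of the table, or 0.0457%. The Gad1 window holds TATAAA on its reverse strand, 141 to 136 bases upstream, a pattern in 12.4% of all windows. None of the 4 half-sites is in the windows of Gria2, Gad1, Adcyap1r1 or Cacna2d3. AGGTCA is in 14.0% of all windows, AGTTCA in 11.8%, GGGTCA in 11.6% and GGTTCA in 8.85%. One of the 3 windows of Gabrb2 holds GGGTCA 11 to 6 bases and TATAAA 30 to 25 bases upstream. The Cacna2d3 window holds CAGCTG, found in 13% of all windows, and CAGATG, found in 14.4%, is in no window of the 5 genes searched. A match describes letters only, and binding was not measured here.

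Of the 138 combinations of gene and table, 37 were up and 0 were down. Of all listed genes, between 0.57% and 10.4% were down in a table. In the 7 day 10 tables of cells treated with ATRA or BMS753, 29 of 42 combinations were up. In the other 9 day 10 tables the number was 5 of 54, and in the 7 tables of days 2 and 4 it was 3 of 42. The share of all listed genes that were up also differed between these sets of tables, from 19% to 22.5% in the first, 7.02% to 16.8% in the second and 1.65% to 10.2% in the last. RNA came from whole cultures, so a larger share of cells that express a gene and more RNA per cell cannot be told apart.

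In WT cells with ATRA at day 10, 5 of the 6 genes were up, against 22.5% of the 1753 listed genes. With BMS753 at day 10, Gria2, Gad1, Cbln2 and Adcyap1r1 were up, against 21.8%. None of the 6 was up with the combination, where 9.87% of the listed genes were, with BMS961 alone, where 8.16% were, or with EtOH, where 9.53% were. The 1753 genes are those that passed the authors' limit in at least 1 table and not all genes the authors tested.

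Among the mutant lines, rarbKO cells with BMS753 had 5 of the 6 genes up, against 22.3% of the listed genes. rargKO cells had the same 4 genes up with ATRA, against 21.4%, and with BMS753, against 19.9%. raraKO cells with ATRA also had these 4 up, against 19%. rarbKO cells with ATRA had Gria2, Cbln2 and Adcyap1r1 up, against 20.5%.

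raraKO cells were the only mutant line with members up outside ATRA and BMS753. The combination gave Gria2, Cbln2 and Adcyap1r1, against 16.8% of the listed genes, and BMS961 alone gave Gria2 and Adcyap1r1, against 10.9%. None of the 6 was up in rarbKO cells with BMS961 or the combination, where 7.02% and 8.27% of the listed genes were up. Likewise none was up in rargKO cells with BMS641, where 8.5% were up, or with the combination, where 8.61% were.

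Before day 10 few of these genes were listed. Cbln2 was up with ATRA at day 2, against 5.65% of the listed genes, and at day 4, against 10.2%. Adcyap1r1 was up with EtOH at day 4, against 1.65%. None was up with BMS753 at day 2 (6.39%) or day 4 (8.33%), or with the combination at day 2 (3.71%) or day 4 (2.22%).

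**Figure D1:**
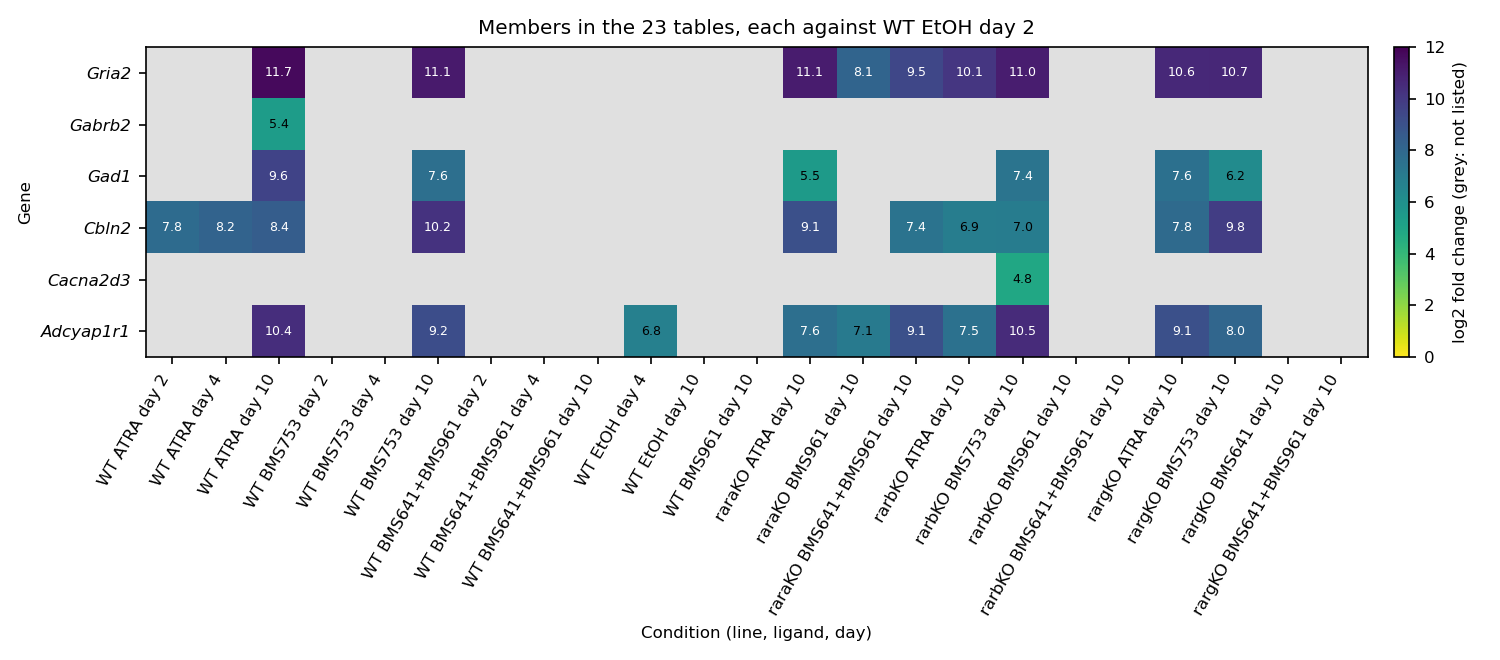
Log2 fold change of the 6 genes (rows) in each of the 23 tables (columns), every one against WT cells after 2 d of EtOH; grey cells are not listed. Gria2 reaches 11.7 in WT cells with ATRA, and filled cells gather in the ATRA and BMS753 columns of day 10 and in raraKO cells.

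Gria2 was up in 9 tables, all of day 10. In the authors' deposited tables its log2 fold change in WT cells was 11.67 with ATRA (SE 2.80, p = 3.15e-05) and 11.12 with BMS753 (SE 2.71, p = 4.1e-05). In both tables this was the highest value among the genes that were up, rank 1 of 395 and of 383. In raraKO cells the value was 11.07 with ATRA, 9.47 with the combination (SE 2.42) and 8.13 with BMS961 alone (SE 2.45). The p-values of the authors' tables for the last pair were p = 8.9e-05 and p = 0.000922. In rarbKO cells it was 11.05 with BMS753 and 10.12 with ATRA, and in rargKO cells 10.65 with BMS753 and 10.64 with ATRA. The 7 values with ATRA or BMS753 lay within 1.56 log2 units of each other, the narrowest spread among the 4 genes listed in 6 or more tables. Each step between neighbours in the order of the 9 values was smaller than 1 SE, and the largest, 1.33, separated the combination from BMS961 alone in raraKO cells. Gria2 was not listed in WT cells with BMS961 or the combination, nor with EtOH at day 10. With an SE in the range found for Gria2, 2.42 to 2.80, a log2 fold change of 6.22 to 7.22 would have been needed for listing. In GENCODE, 29 exon bases of Gria2 also carry a predicted miRNA gene on the same strand.

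Gabrb2 (chr11:42233259-42446092) was up in 1 table only, WT cells with ATRA at day 10, with a log2 fold change of 5.37 (SE 2.02, p = 0.00794 in the authors' table). It ranked 345 of the 395 genes up there, and its p-value lay close to the limit of 0.01. In the other 22 tables, WT cells with BMS753 at day 10 included, it was not listed, and a value of 5.22 would have been needed at the same SE.

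Gad1 was up in 6 tables of day 10, all with ATRA or BMS753. In the authors' tables its log2 fold change was 9.59 in WT cells with ATRA (SE 2.48, p = 0.00011) and 7.63 with BMS753 (SE 2.28, p = 0.000814). In rargKO cells it was 7.59 with ATRA and 6.23 with BMS753, and in rarbKO cells 7.39 with BMS753. The lowest value was that of raraKO cells with ATRA, 5.48 (SE 2.11), near the limit of listing with p = 0.00939 in the authors' table. Gad1 differed from Gria2 in the tables where it was missing, since it was not listed in rarbKO cells with ATRA or in raraKO cells with the combination or BMS961. With its own SE of 2.11 to 2.48, from tables with ATRA or BMS753, the value needed for listing was 5.43 to 6.39. The median SE of the genes up was 2.25 in rarbKO cells with ATRA and 2.09 in raraKO cells with ATRA. In rarbKO cells with ATRA the absence therefore does not exclude a change of the size seen in raraKO cells with ATRA. The median was 1.70 in raraKO cells with the combination and 1.72 with BMS961, so less may have been needed there. The SE of Gad1 in those tables is unknown. A noncoding gene on the opposite strand overlaps the Gad1 locus without sharing exon bases.

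Cbln2 (chr18:86880502-86887675) was up in 10 tables and was the only one of the 6 genes up during exposure to a retinoid. With ATRA in WT cells its log2 fold change was 7.82 at day 2, with a deposited SE of 2.91, 8.16 at day 4 (SE 2.83) and 8.45 at day 10 (SE 2.63). These 3 values differ by less than 1 SE. BMS753 gave 10.23 at day 10 in WT cells (SE 2.66), the highest value of the gene, and no listed value at day 2 or day 4. The gene was at 9.80 in rargKO cells with BMS753, 9.06 in raraKO cells with ATRA and 7.85 in rargKO cells with ATRA. Lower values were those of raraKO cells with the combination, 7.42, and of rarbKO cells, 6.97 with BMS753 and 6.93 with ATRA. Unlike Gria2 and Adcyap1r1, Cbln2 was not listed in raraKO cells with BMS961 alone. At its SE of 2.47 to 2.91, listing needed 6.37 to 7.49, close to the values in rarbKO cells.

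Cacna2d3 (chr14:29718133-30535050), a gene of 817 kb with up to 38 exons, was up in rarbKO cells with BMS753 at day 10 alone. Its log2 fold change there was 4.83 (SE 1.77, p = 0.0064 in the authors' table), rank 364 of the 391 genes up in that table. It was not listed in the other 22 tables, where 4.56 would have been needed at the same SE.

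Adcyap1r1 was up in 10 tables, the 9 tables of Gria2 and WT cells with EtOH at day 4. Its log2 fold change was highest in rarbKO cells with BMS753, 10.55 (SE 2.67), and in WT cells with ATRA, 10.41 (SE 2.73). It was 9.19 in WT cells with BMS753, 9.08 in raraKO cells with the combination and 9.05 in rargKO cells with ATRA. Lower values were 8.04 in rargKO cells with BMS753, 7.61 in raraKO cells with ATRA, 7.51 in rarbKO cells with ATRA and 7.07 in raraKO cells with BMS961. In the vehicle at day 4 it was 6.80 (SE 2.29, p = 0.00302 in the authors' table), and at day 10 in EtOH it was not listed. WT cells with ATRA at day 10 lay 3.61 log2 units above the vehicle at day 4, with a 95% interval of -3.37 to 10.60.

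**Figure D2:**
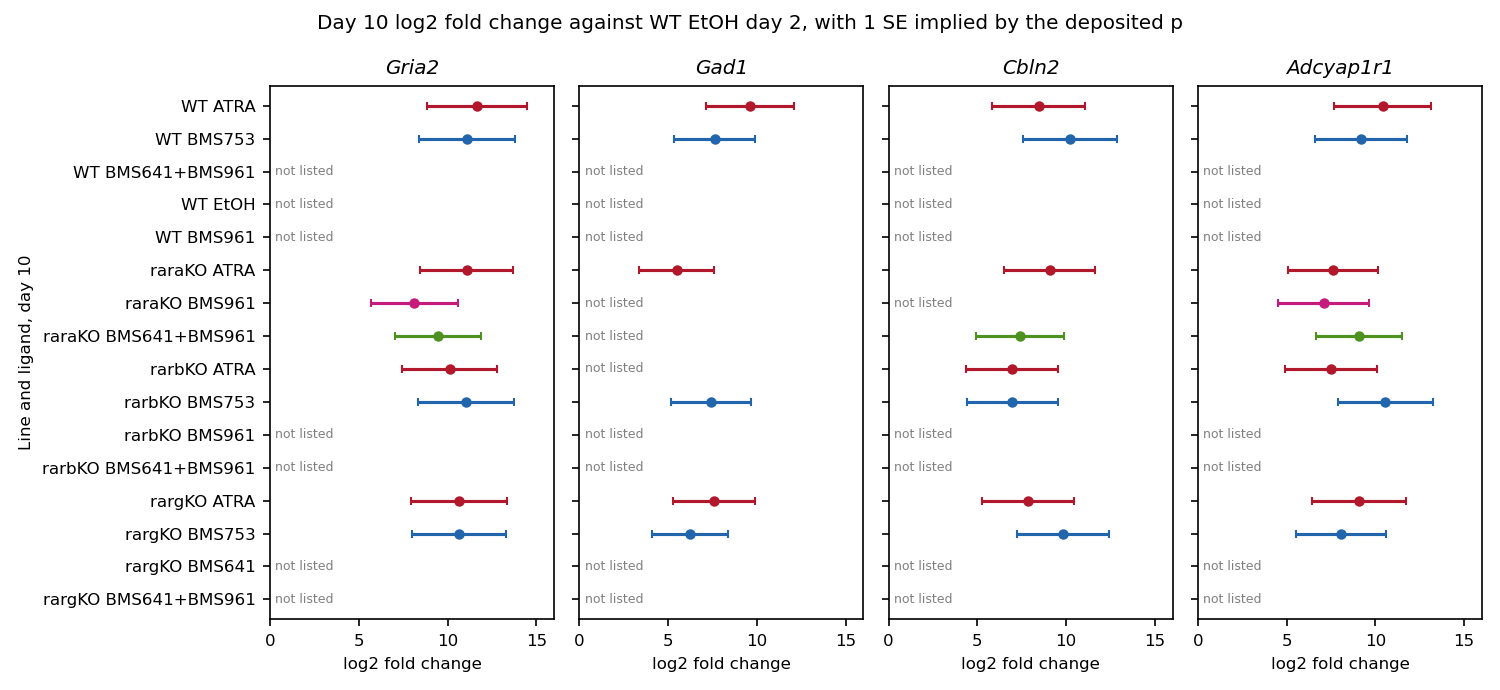
Day 10 log2 fold change (horizontal axis) of the 4 genes listed in 6 or more tables, by line and ligand, with bars of 1 SE implied by the deposited p-value; red is ATRA, blue BMS753, green the combination and magenta BMS961. The Gria2 points with ATRA or BMS753 lie between 10.12 and 11.67, and the bars of all listed conditions of a gene overlap.

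ATRA and BMS753, both at 1 μM and sampled at day 10, were compared within WT, rarbKO and rargKO cells for each gene listed with both, which gave 11 pairs. ATRA had the higher value in 5 of them. In WT cells the difference, ATRA minus BMS753, was 0.56 for Gria2, 1.96 for Gad1, 1.22 for Adcyap1r1 and -1.78 for Cbln2. The 95% interval of the Gad1 difference ran from -4.64 to 8.56 and that of Cbln2 from -9.12 to 5.56. In rargKO cells the same signs held for Gad1 (1.36), Adcyap1r1 (1.01) and Cbln2 (-1.95), and Gria2 was at -0.02. In rarbKO cells Adcyap1r1 was 3.04 higher with BMS753, with an interval of -10.33 to 4.26 for ATRA minus BMS753. The intervals treat both errors as independent although the reference library is shared. They span several log2 units on both sides of 0, so they do not show that the ligands act alike.

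In raraKO cells BMS961 was given alone and with BMS641, both at 0.1 μM. The combination was higher by 1.33 for Gria2 (95% interval -5.41 to 8.08) and by 2.01 for Adcyap1r1 (-4.89 to 8.90). Cbln2 was listed with the combination only. Together with the pairs of ATRA and BMS753, 13 pairs of ligands were compared at matched doses, and the interval included 0 in all 13. ATRA at 1 μM in the same line gave 11.07 for Gria2, 9.06 for Cbln2 and 7.61 for Adcyap1r1, beside 9.47, 7.42 and 9.08 with the combination at 0.1 μM each. These doses differ, so the values only stand side by side.

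For the same ligand, 19 pairs of WT and mutant values could be formed at day 10, and the mutant value was the lower in 17, or 89.5%. Over all listed genes up in both tables of such a pair the share was 55.9% of 1221 values, from 36.9% for rarbKO cells with ATRA to 73.6% for rargKO cells with BMS753. The members were chosen by their values in these tables, so nothing is read from this gap. The largest difference was that of Gad1 with ATRA, 4.11 lower in raraKO than in WT cells (95% interval of WT minus raraKO -2.27 to 10.49). Cbln2 with BMS753 was 3.26 lower in rarbKO than in WT cells (-3.98 to 10.49), and Adcyap1r1 with ATRA was 2.90 lower in rarbKO (-4.48 to 10.28) and 2.80 lower in raraKO cells (-4.51 to 10.10). The exceptions were Cbln2 with ATRA, 0.61 higher in raraKO cells, and Adcyap1r1 with BMS753, 1.36 higher in rarbKO cells. All 19 intervals included 0. The WT values stand in several pairs each, so the 17 pairs are not independent.

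The 5 members listed with ATRA in WT cells at day 10 had a median of 9.59, beside a median of 6.94 over the 395 genes up in that table. With BMS753 the medians were 9.71 and 6.91. In raraKO cells with the combination they were 9.08 and 5.37. The gap was small in rarbKO cells, with 7.51 beside 7.07 for ATRA and 7.39 beside 6.75 for BMS753. For raraKO cells the medians were 8.34 and 6.81 with ATRA, and 7.60 and 5.36 with BMS961. rargKO cells had 8.45 and 6.99 with ATRA, and 8.92 and 6.61 with BMS753. The members were chosen for large values, so nothing is read from these medians.

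Other genes of the synapse were taken from 7 lists with 133 different genes, 31 of which are in at least 1 table, the 6 members included. Of the 25 others, 18 were up in WT cells with ATRA at day 10, or 72% beside 22.5% of all listed genes, and 13 with BMS753, or 52% beside 21.8%. In WT cells with the combination 3 were up, or 12% beside 9.87%, and with EtOH at day 10 none beside 9.53%. In raraKO cells 9 were up with the combination, or 36% beside 16.8%, 7 with ATRA, or 28% beside 19%, and 6 with BMS961, or 24% beside 10.9%. rarbKO cells had 14 up with BMS753, or 56% beside 22.3%, and 5 with ATRA, where 20% lay beside 20.5%. rargKO cells had 13 up with ATRA, or 52% beside 21.4%, and 10 with BMS753, or 40% beside 19.9%. In the other day 10 tables the share lay near or below that of all listed genes, with 8% beside 8.16% in WT cells with BMS961, 8% beside 7.02% in rarbKO cells with BMS961 and 4% beside 8.27% in rarbKO cells with the combination. In rargKO cells none was up with BMS641, beside 8.5%, or with the combination, beside 8.61%. Before day 10, WT cells with BMS753 had 3 up at day 2, or 12% beside 6.39%, when no member was up, and 1 at day 4, or 4% beside 8.33%. With ATRA the share was 4% beside 5.65% at day 2 and 8% beside 10.2% at day 4, and with the combination or EtOH none of the 25 was up at these times. The lists hold genes of interest in neurons and were chosen with earlier results of these tables known.

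**Figure D3:**
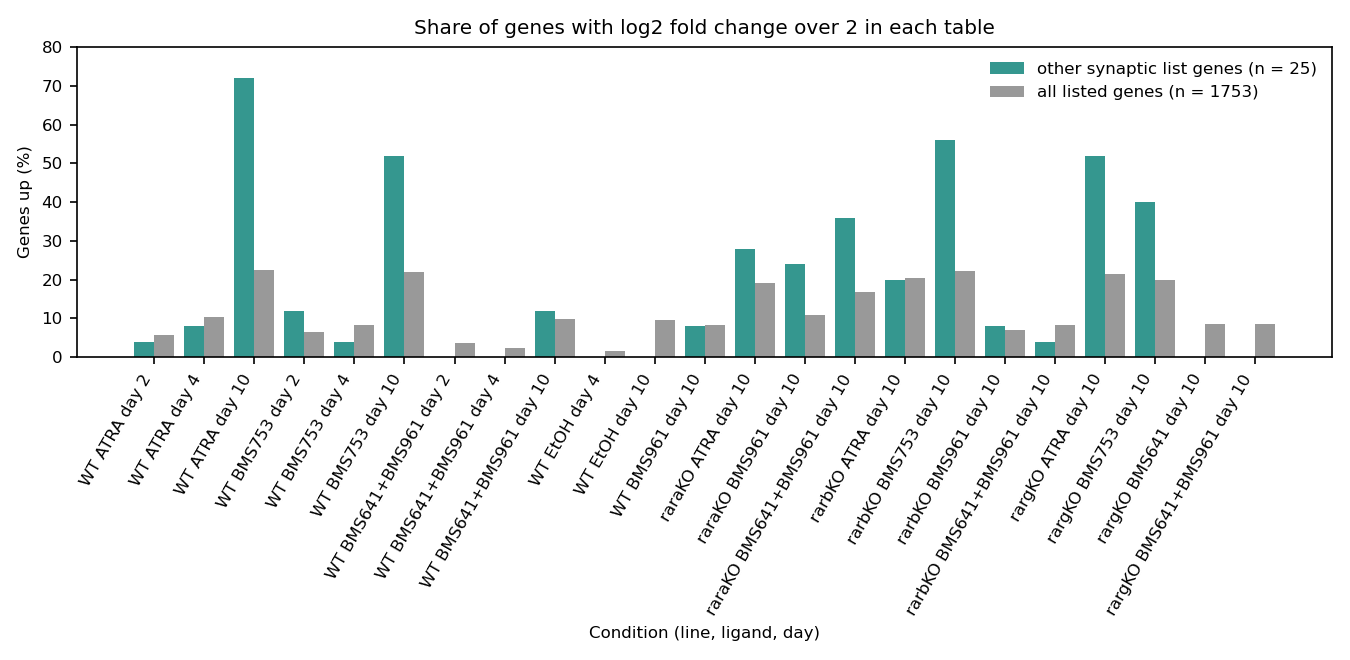
Percent of the 25 other synaptic list genes (teal) and of all 1753 listed genes (grey) with a log2 fold change over 2 in each of the 23 tables. The teal bar reaches 72% in WT cells with ATRA at day 10 and is at 0 in EtOH.

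Of the 16 AMPA, kainate and NMDA receptor genes, 6 were listed. Beside Gria2, the NMDA receptor subunit Grin2b was up in 6 tables, with 6.86 in WT cells with ATRA and 4.81 in raraKO cells with the combination. Gria1, the AMPA receptor subunit GluA1, was up in 4 tables, all of WT or rargKO cells with ATRA or BMS753, from 4.59 to 5.83. Grin1, the obligatory NMDA receptor subunit, was up with ATRA in WT (7.16) and rargKO cells (7.04). Gria1 was not listed in raraKO cells, where Gria2 was up with each ligand.

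Of the 23 GABA-A and glycine receptor genes, 8 were listed. Gabra2, an α subunit, was up in 5 tables, with 7.51 in WT cells with ATRA, 7.68 in raraKO cells with BMS961 and 7.67 with the combination. Gabrg1, a γ subunit, was up only in raraKO cells, with 8.29 for the combination and 7.28 for BMS961. Gabrb2 was the only GABA-A receptor β subunit listed, and Glrb, the glycine receptor β subunit, was up in raraKO cells with ATRA (4.50).

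Of the 21 genes of transmitter synthesis and transport, 7 were listed. Slc17a6, the vesicular glutamate transporter VGLUT2, was up in 10 tables, the 9 tables of Gria2 and WT cells with the combination, where it was 8.46. Its value was 10.51 in WT cells with BMS753, 9.80 with ATRA, and 9.30 in raraKO cells with the combination. Gad2, the second GABA-synthesising enzyme, was up in 3 tables, with 6.93 in WT cells with ATRA, 6.10 in rarbKO cells with BMS753 and 5.63 in rargKO cells with ATRA. Slc32a1, which loads GABA into vesicles, was up in 2, with 6.82 in WT cells with ATRA and 7.10 in rarbKO cells with BMS753. None of Gad1, Gad2 and Slc32a1 was listed in raraKO cells with the combination or BMS961, where Slc17a6 was. Slc6a13, a GABA transporter, was down with ATRA in raraKO (-5.95) and rargKO cells (-6.43).

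Of the 16 genes of cerebellins and trans-synaptic adhesion, 3 were listed. Cbln1 was up in 10 tables, but not the same ones as Cbln2. Without Cbln2 it was up in WT cells with the combination (4.85) and BMS961 (3.85), and in raraKO cells with BMS961 (5.17). The same held in rarbKO cells with BMS961 (3.83) and the combination (6.48). Cbln1 was not listed with ATRA in any mutant line. Nrxn3, a presynaptic neurexin, was up in 10 tables, the 9 tables of Gria2 and WT cells with ATRA at day 4 (4.75), with its highest value in rarbKO cells with BMS753 (7.99).

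Of the 24 calcium channel subunit genes, 3 were listed. Cacng4, which encodes an AMPA receptor auxiliary protein of the channel γ subunit family, was up in 6 tables, from 4.23 to 5.48, and Cacna1h was down in 2 early tables, with -2.44 for BMS753 at day 2 and -2.32 for the combination at day 4. Of the 10 genes of PACAP, VIP and adenylyl cyclase, Adcy8, a calcium-stimulated adenylyl cyclase, was up in 15 tables, and it was the one listed beside Adcyap1r1. Its value was 10.61 in WT cells with BMS753 at day 10, 7.73 with the combination and 6.86 with BMS961, and in WT cells with ATRA it was 8.31 at day 2 and not listed at day 4. Of the 23 vesicle release genes, the calcium sensor Syt1 was up in 6 tables (4.50 to 5.77) and Syt4 in 7 (3.79 to 7.41).

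**Figure D4:**
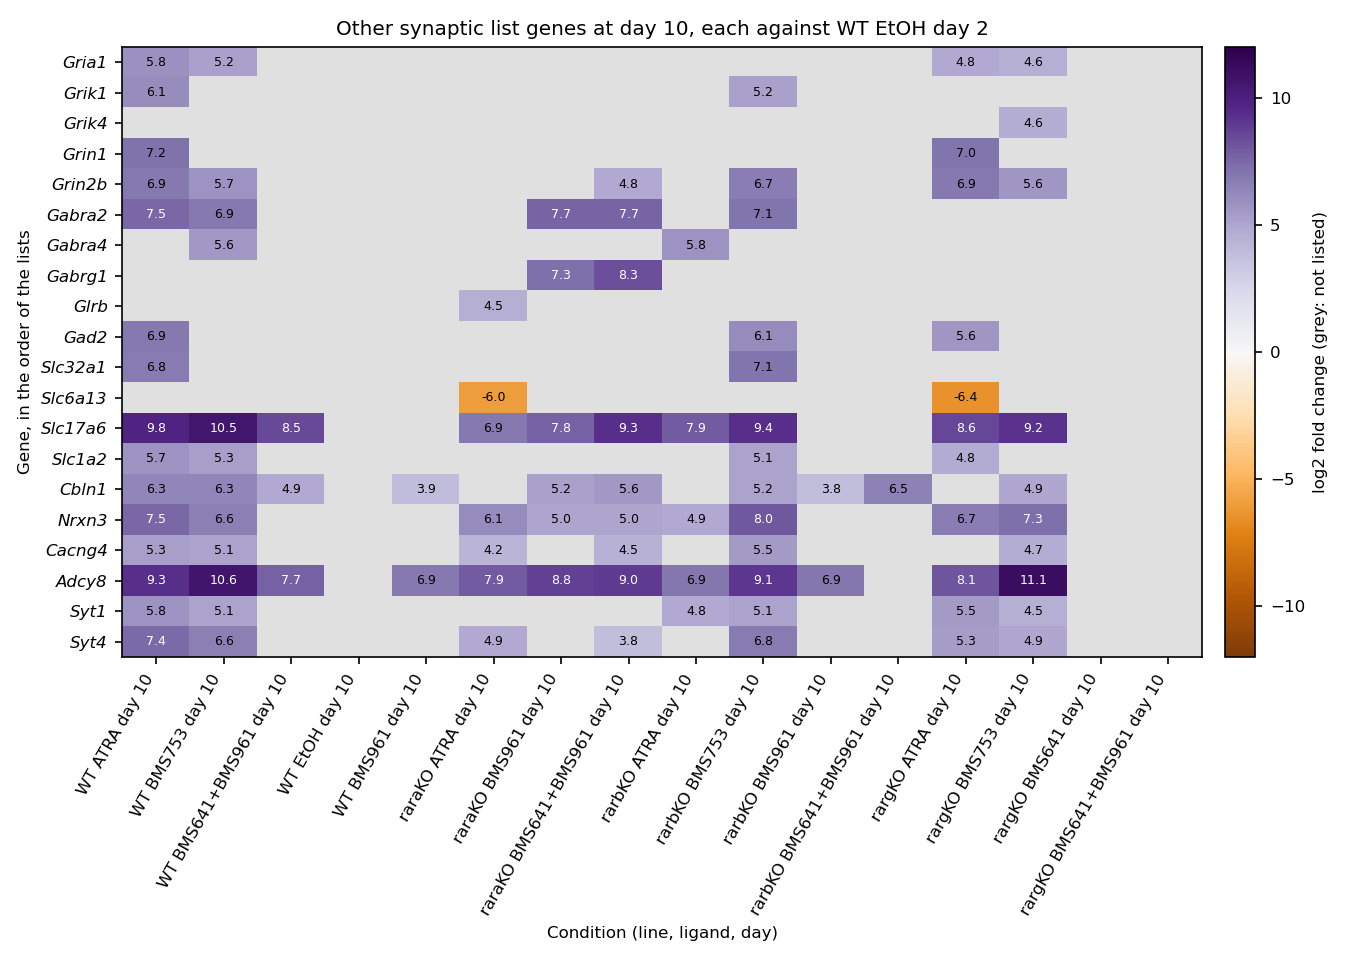
Log2 fold change of 20 of the 23 other synaptic list genes listed at day 10 (rows; the other 3 are not reported here) in the 16 day 10 tables (columns); grey cells are not listed, purple is higher and orange lower than in WT cells after 2 d of EtOH. Slc17a6 is filled in raraKO cells with the combination (9.3), where Gad2 and Slc32a1 are grey.

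The cultures hold several cell types, and marker lists were read beside the members. Of 11 neuron markers 7 were listed, and of these 5 were up in WT cells with ATRA at day 10 (22.5% of all listed genes), 4 with BMS753 (21.8%), 1 with the combination (9.87%) and none with EtOH (9.53%). At day 4 of ATRA 2 were up (10.2%). In raraKO cells 3 were up with the combination (16.8%), 2 with BMS961 (10.9%) and 1 with ATRA (19%). In rarbKO cells 6 were up with BMS753 (22.3%) and 1 with ATRA (20.5%), and in rargKO cells 4 were up with ATRA (21.4%) and 4 with BMS753 (19.9%). Dcx, a protein of young neurons, was at 8.35 in WT cells with ATRA, 4.67 with the combination, and 5.55 in raraKO cells with the combination. Of the 6 astrocyte markers, Slc1a2 was up in 4 tables and S100b in 1, Aldh1l1 was down in 13, and Gfap and Aqp4 were in no table. Syt1 and Slc1a2 stand in a synaptic list as well as a marker list. Of the 5 oligodendrocyte precursor markers only Pdgfra, which mesenchyme also expresses, was in any table. It was up in 15, with its highest value, 13.09, in rarbKO cells with ATRA. In 5 of these no member was up, WT cells with BMS753 at day 4 and rarbKO and rargKO cells with the combination, rarbKO cells with BMS961 and rargKO cells with BMS641, where it lay between 6.97 and 7.45. Of the 8 pluripotency markers 4 were listed, Pou5f1, Nanog, Tdgf1 and Fgf4. All 4 were down in WT cells at day 10 with ATRA, where 8.61% of all listed genes were down, and with BMS753, where 9.13% were. Nanog, Tdgf1 and Fgf4 were also down at day 10 in WT cells where no member was up. The values were -3.24, -3.37 and -4.17 with EtOH (7.64% of all listed genes), -4.32, -5.12 and -3.37 with the combination (8.5%) and -3.51, -4.37 and -3.28 with BMS961 (7.47%). Pou5f1 was down in 9 tables, among them WT cells with ATRA (-9.88) and BMS753 (-8.14) at day 10, and was not listed in 4 tables with a member up, those of rarbKO cells with BMS753, raraKO cells with the combination and with BMS961, and WT cells with EtOH at day 4. In rarbKO cells with BMS753 only Fgf4 of these markers was down (-7.95, beside 6.79% of all listed genes), and in raraKO cells with the combination and with BMS961 Tdgf1 (-3.84 and -4.43) and Fgf4 (-4.55 and -7.21) were, beside 6.67% and 8.61%. Of the 7 mesenchyme and muscle markers, 6 were listed. The collagen gene Col3a1 was up in 13 tables, among them all 9 of Gria2, where it ranged from 7.48 in raraKO cells with BMS961 to 11.90 in rarbKO cells with ATRA. It was also up where no member was, in WT cells with BMS753 at day 4 (5.23) and with the combination at day 10 (4.78), and in rargKO cells with BMS641 (3.71). Acta2, smooth muscle actin, was up only in tables with no member up, those of WT cells with EtOH at day 10 (2.89) and of rargKO cells with BMS641 (2.93) and with the combination (2.78). Lum, a matrix proteoglycan, was up in the 7 day 10 tables with ATRA or BMS753 (5.80 to 9.34) and in no other. Of the 5 endoderm markers, 2 were listed, Foxa2 in 2 tables and Gata6 in 7. Gata6 was up with ATRA at day 10 in raraKO (7.46), rarbKO (8.07) and rargKO cells (8.86) and was not listed there in WT cells. In WT cells with ATRA, Gata6 was up at day 2 (6.62) and day 4 (6.29), where Cbln2 was the only member up. Foxa2 was up at day 2 of ATRA as well (6.47), when no neuron marker was. With BMS753, Gata6 was up in WT cells at day 4 (5.88), where no member was up. Both genes were up in rargKO cells with BMS753 (Gata6 7.25, Foxa2 5.83). The part of cell composition in the members' values was not tested. The study's own marker lists place Gad1, Cbln2 and Cacna2d3 among neuron, Adcyap1r1 among astrocyte and Gabrb2 among oligodendrocyte precursor markers, and Gria2 in none. Of its neuronal subtype lists, the dopaminergic list holds Gad1 and Cbln2, the glutamatergic list holds Cbln2, and the GABAergic list holds no member.

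For each gene, the 3 genes with the most similar set of tables were found by the Jaccard index over the 23 tables, which is the number of tables in which both are up divided by the number in which either is. For Gria2, 7 genes had an index of 1, and by closeness of values the first were Emp1 (5.83 to 9.14), Lrrc73 (6.88 to 9.16) and Nfia (5.58 to 8.24). The same 3 came first for Adcyap1r1, with an index of 0.9. For Gad1, 5 genes had an index of 1, and the first were AI593442 (5.49 to 8.31), Nxph1 (6.68 to 8.57), which encodes a secreted ligand of neurexins, and Faim2 (6.79 to 8.51). For Cbln2 they were Hoxb3, Osr1 and Mex3b, with an index of 0.909 each, since all 3 were also up with BMS753 at day 4, where Cbln2 was not listed. Among the members themselves, Gria2 and Adcyap1r1 shared 9 tables of 10, Gria2 and Cbln2 8 of 11, and Gria2 and Gad1 6 of 9. Gabrb2 and Cacna2d3 were up in 1 table each, which they did not share. Only genes up in 3 or more tables were searched, so their index could not pass 0.333, and the genes at that value, with Scrt2, Scn3a and Gprin1 first for Gabrb2 and Scn3a, Fam155a and Ntn1 for Cacna2d3, say little about likeness. All indices describe tables that share 1 reference library.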

How the data were processed

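Poly-A RNA of P19 cells was sequenced as paired-end reads on a NovaSeq. Mapping by the authors used Bowtie2 2.1.0 with default settings and the mm9 genome, counting used featureCounts, and DESeq2 gave the comparison of every library with WT cells after 2 d of EtOH. Whether the counting used strand is not given in the sources used here. The deposited values are the log2 fold change and its unadjusted p-value, for genes with p under 0.01. In 1 table, WT ATRA day 2, the authors deposited the standard error too, a score in log2 units. These comparison columns are the only measurements in the files and are given as the authors' values. Read counts were not used here, so depth is unknown and neither a count test nor a depth limit could be given.

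A standard error was computed from each log2 fold change and p-value (normal, two-sided). For the 144 genes with a deposited one, the relative difference was 4.27e-08 at most. Intervals of differences are at the 95% level. No significance test was run, since no condition has a replicate. The code for the calls and the implied error was run on simulated data with smaller errors than those of the members. That check covers the arithmetic only. The members and the lists were chosen with earlier results of these data known. The genes named are the 6 members, genes of the 7 lists found in at least 1 table, cell type markers, and for each member the 3 genes of highest Jaccard index among genes up in 3 or more tables. Coordinates are those of mm9 with GENCODE vM1. Scripts ran on Python 3.11.15 with scipy 1.17.1, matplotlib 3.10.9, numpy 2.4.6, pandas 2.3.3. Alternatives were other fold thresholds, a stricter p-value limit, matching of older symbols, other summaries of the members and other measures of likeness. Some genes of the lists enter the counts but are not reported by name here.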

Additional observations from a re-analysis of the deposited data

How the results depend on the processing

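A count was taken as unchanged within 1.5 times its value, and a median of the members within the smallest SE of the members listed in that table. Of 66 values recomputed under an alternative, 55 were unchanged in this sense and 11 moved. A p-value limit of 0.001 moved 8 of them. It left 19 of the 37 combinations of gene and table up, and the number of tables was 0 for Gabrb2, 2 for Gad1, 3 for Cbln2, 0 for Cacna2d3 and 5 for Adcyap1r1, whereas Gria2 kept all 9. Under the same limit the synaptic list genes up in WT cells with ATRA at day 10 went from 23 to 9, and those in raraKO cells with the combination from 12 to 6, members included. A log2 threshold of 5 left Cacna2d3 up in 0 tables. Matching of symbols that ignored case or used older names, and the mean in place of the median, moved no value past those limits. Thresholds of 1 and 3, with 9 values each among the 55, could move none. The lowest member value was 4.83. The lowest values up were 4.77 in WT cells with ATRA and 3.35 in raraKO cells with the combination, at day 10. The median over the 4 genes listed together also stayed within the limits, but it repeats the first median wherever no other member was listed. The widest shift of a median was that in rarbKO cells with BMS753, from 7.39 to 8.97 over those 4 genes. Of the 18 pairs of a member and a gene most like it, which hold 14 different genes, 10 came up again when the index used the 16 day 10 tables only, and 10 when the Spearman correlation with genes not listed set to 0 was used. Restricting the combinations to the day 10 tables, an alternative chosen after seeing the data, gave 34. Differences were formed within a line or for the same ligand, and no paired test over lines was run. Each condition has 1 library. The p-values are unadjusted, the SE of most values is over 2 log2 units, and no depth is known, so neither small differences between conditions nor low expression can be read from these tables.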
